A study of Homo sapiens with 414 samples.

Results

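The 10 genes described here are textbook targets of ATF4, the transcription factor of the integrated stress response: ATF3, DDIT3, NUPR1, CHAC1, TRIB3, SESN2, ASNS, PSAT1, PCK2 and STC2. They were taken by name from the 19084 gene symbols of an RNA-seq series. All 10 were measured, and all 10 passed the filter on low values that left 16318 genes for testing. The cells were H1-NPC, a culture of neural progenitors made from H1 human embryonic stem cells, and the study's aim was a neurotoxicity screen. Cells were seeded in 48-well plates in a neural medium, given a compound on the same day and lysed on the plate 1 to 39 days later.

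Of the 414 libraries, 266 came from 29 compounds labelled toxic and the others from 16 compounds labelled non-toxic. Each compound was given at 1 dose and had at most 1 library on each of 11 sampling days, so its libraries of different days served as its replicates. The toxic compounds on which most results turn were arsenic at 5 µM, cadmium at 50 µM, lead acetate at 30 µM, okadaic acid at 3 nM, and the kinase inhibitors K252a at 30 nM, Bis-I at 4 µM, PD166866 at 2.5 µM and U0126 at 10 µM. The agents that act on DNA were cytosine beta-D-arabinofuranoside (AraC) at 5 µM, busulfan at 50 µg/ml, 5-fluorouracil at 10 µM and hydroxyurea at 250 µM. The others named below were vincristine at 1 nM, (trans) retinoic acid at 1.7 µM, isotretinoin (labelled Accutane or Isotretinoin) at 0.5 µg/ml, dexamethasone at 100 µM and maneb at 60 µM. Compounds that moved few or none of the genes were benzene at 50 µg/ml, carbamazepine at 10 µg/ml, diazinon at 10 µM, permethrin at 2.5 µM, amiodarone at 1 µg/ml, monosodium glutamate at 150 µM, 2-imidazolidinethione at 0.4 mM, bioallethrin at 10 nM, dioxin at 3 nM, L-phenylalanine at 1 mM, propylthiouracil at 25 µg/ml and thalidomide at 100 ng/ml. The non-toxic libraries, 7 to 16 on each day, pooled DMSO at 0.1% with 15 other compounds. Those at 10 µM were sucrose, fructose, sorbitol, saccharin, glycerol, glyphosate, PEG 3350 and Ficoll. Those at 0.4 to 100 µg/ml were acetaminophen, amoxicillin, aspirin, glucosamine, ibuprofen, naproxen sodium and PVP. The labels do not say whether wells came from separate cultures, so p-values measure the spread between these wells only. In the test of a compound, its few libraries shared a single variance with a larger number of non-toxic libraries. The SE and p-value of a compound therefore follow mainly the spread of the non-toxic wells. They say little about how far its own libraries differed between days.

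The integrated stress response starts when a stress-sensing kinase phosphorylates the translation factor eIF2 on its alpha subunit. Most protein synthesis then slows, while the ATF4 message is translated more efficiently, and ATF4 protein switches on genes for amino acid supply, redox balance and stress signalling. The known inputs include haem loss and arsenite (the kinase HRI, gene EIF2AK1), double-stranded RNA (PKR, EIF2AK2), unfolded proteins in the endoplasmic reticulum (PERK, EIF2AK3) and amino acid shortage (GCN2, EIF2AK4). In neural cells a long-lasting response is known to be able to end in cell death, partly through DDIT3.

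ATF4 binds, as a dimer with a C/EBP protein, to composite sites with the core TGATGNAA. Promoter sequences, 250 bases before to 50 bases after a transcription start, were taken from RefSeq on GRCh38.p14 and matched 9 of the 10 genes with 14 starts. The core was searched on both strands, and 3 of the 9 genes held a match: ASNS, ATF3 and CHAC1. Of all 35116 promoters of this length 3.617% held a match, and of all 27305 symbols 4.457% did. The 3 promoters with a match are shown so that the reader can see the searched core in its place. ASNS and ATF3 each had another start, whose promoter held no match. ASNS lies on the minus strand at chr7:97872359-97872658, ATF3 on the plus strand at chr1:212565157-212565456, and CHAC1 on the plus strand at chr15:40953221-40953520. Each is printed 5′ to 3′ on the strand of its gene, with the matched bases in capitals.
ASNS: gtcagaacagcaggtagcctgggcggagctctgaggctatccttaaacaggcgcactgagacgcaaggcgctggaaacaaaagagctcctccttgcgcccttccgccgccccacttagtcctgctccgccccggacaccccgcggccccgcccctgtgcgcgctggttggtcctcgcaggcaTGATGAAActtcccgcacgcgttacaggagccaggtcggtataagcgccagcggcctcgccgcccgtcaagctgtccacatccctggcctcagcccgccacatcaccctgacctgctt
ATF3: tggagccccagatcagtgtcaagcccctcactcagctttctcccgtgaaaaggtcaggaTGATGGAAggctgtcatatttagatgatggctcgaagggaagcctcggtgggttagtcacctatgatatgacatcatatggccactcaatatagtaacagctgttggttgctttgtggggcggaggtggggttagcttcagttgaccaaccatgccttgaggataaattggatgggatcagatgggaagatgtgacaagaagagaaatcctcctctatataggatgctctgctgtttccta
CHAC1: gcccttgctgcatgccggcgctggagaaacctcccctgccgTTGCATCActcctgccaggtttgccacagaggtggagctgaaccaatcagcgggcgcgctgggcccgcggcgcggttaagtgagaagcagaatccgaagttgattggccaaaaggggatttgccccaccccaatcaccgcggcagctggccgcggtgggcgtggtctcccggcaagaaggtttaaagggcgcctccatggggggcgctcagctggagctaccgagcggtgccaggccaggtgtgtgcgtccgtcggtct
The first matched base lay 68 bases before the start in ASNS, 191 bases before it in ATF3 and 209 bases before it in CHAC1. In CHAC1 the match was on the opposite strand and so reads TTGCATCA here. A match describes these letters only, and binding of ATF4 was not measured.

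Levels are given in TPM, the usual unit of transcript abundance scaled to transcript length and library size, and so can be set side by side between genes, whereas the reads behind a value are unknown. Differences are on the scale of log2(TPM + 1), which understates changes of low genes, and are printed ± SE. A gene is called higher or lower where limma's Benjamini-Hochberg adjusted p over the 16318 genes was under 0.05. Markers of neural progenitors and neurons were present throughout: all 6 progenitor markers and all 6 neuron markers averaged at least 1 TPM in the non-toxic libraries of both windows, days 1 to 6 and days 8 to 39. The 3 endothelial markers summed to 0.36 to 3.26 TPM and the 3 microglial markers to 0 to 1.55 TPM in those libraries. A group of 4 libraries stood apart, with a median difference from the non-toxic mean of their day, over genes averaging 10 TPM or more, of -1.04 log2 in ibuprofen on day 8, -1.05 in vincristine on day 4, -1.46 in monosodium glutamate on day 1 and -1.48 in maneb on day 1. In vincristine 42.6% of genes lay above and 47.4% below the non-toxic range of that day, in monosodium glutamate 8.50% and 69.4%, and in maneb 9.28% and 69.0%. The counts under vincristine and monosodium glutamate are given with and without these libraries.

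The first question was how the 10 genes behave in cultures that no toxic compound had reached. In the non-toxic libraries most of the 10 were low in the first week and high at the end, with the steepest gains after day 10. DDIT3, which encodes the pro-apoptotic transcription factor CHOP, averaged 11.04 ± 2.48 TPM on day 1, 17.3 ± 2.52 on day 10, 25.97 ± 3.35 on day 21 and 88.0 ± 16.7 on day 39 (SD, n = 16, 15, 11 and 14). ATF3, a stress-induced transcription factor, averaged 5.82 ± 0.905 TPM on day 1, 10.1 ± 1.91 on day 10, 24.7 ± 2.72 on day 21 and 43.3 ± 5.30 on day 39. NUPR1, a small stress-induced nuclear protein, went through a trough, with 2.92 ± 1.16 TPM on day 1, 0.58 ± 0.53 on day 10, 5.24 ± 1.81 on day 21 and 30.1 ± 5.22 on day 39. For all 3, every library of day 39 lay above every library of day 21. The same held for STC2, PSAT1, PCK2, SESN2 and TRIB3, but not for CHAC1 and ASNS. The share of all genes with such a separation was not counted, and 28.8% of all genes were called higher in that step.

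STC2, a secreted glycoprotein known as an unfolded protein response target, averaged 1.32 ± 0.385 TPM on day 4 (SD, n = 16), when only NUPR1 was lower, and reached 59.0 ± 4.06 TPM on day 39 (SD, n = 14). CHAC1, which breaks down glutathione, climbed earlier, to 18.4 ± 2.31 TPM on day 10 against 5.06 ± 0.975 TPM on day 4, a difference of 1.69 ± 0.09. TRIB3, a pseudokinase that can restrain AKT, averaged 35.7 ± 5.89 TPM on day 39 and 9.94 ± 1.00 TPM on day 1. SESN2, a leucine sensor that restrains mTORC1, stayed between day means of 15.1 and 22.5 TPM until day 27 and averaged 32.9 ± 3.08 TPM on day 39.

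Of the genes of amino acid and carbon supply, PSAT1 of the serine pathway was the most abundant of the 10 in TPM on every day but day 10, when ASNS was, at 277 ± 16.4 on day 39 and 101.7 ± 6.81 on day 10 (SD, n = 14 and 15). PCK2, the mitochondrial phosphoenolpyruvate carboxykinase, had its trough on day 8 at 2.22 ± 0.639 TPM and reached 16.8 ± 2.17 TPM on day 39. ASNS, which makes asparagine, followed another course, with a peak of 110.8 ± 9.95 TPM on day 10 and 90.4 ± 7.08 TPM on day 39. The plot of the non-toxic libraries by day shows these courses.

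**Figure D1:**
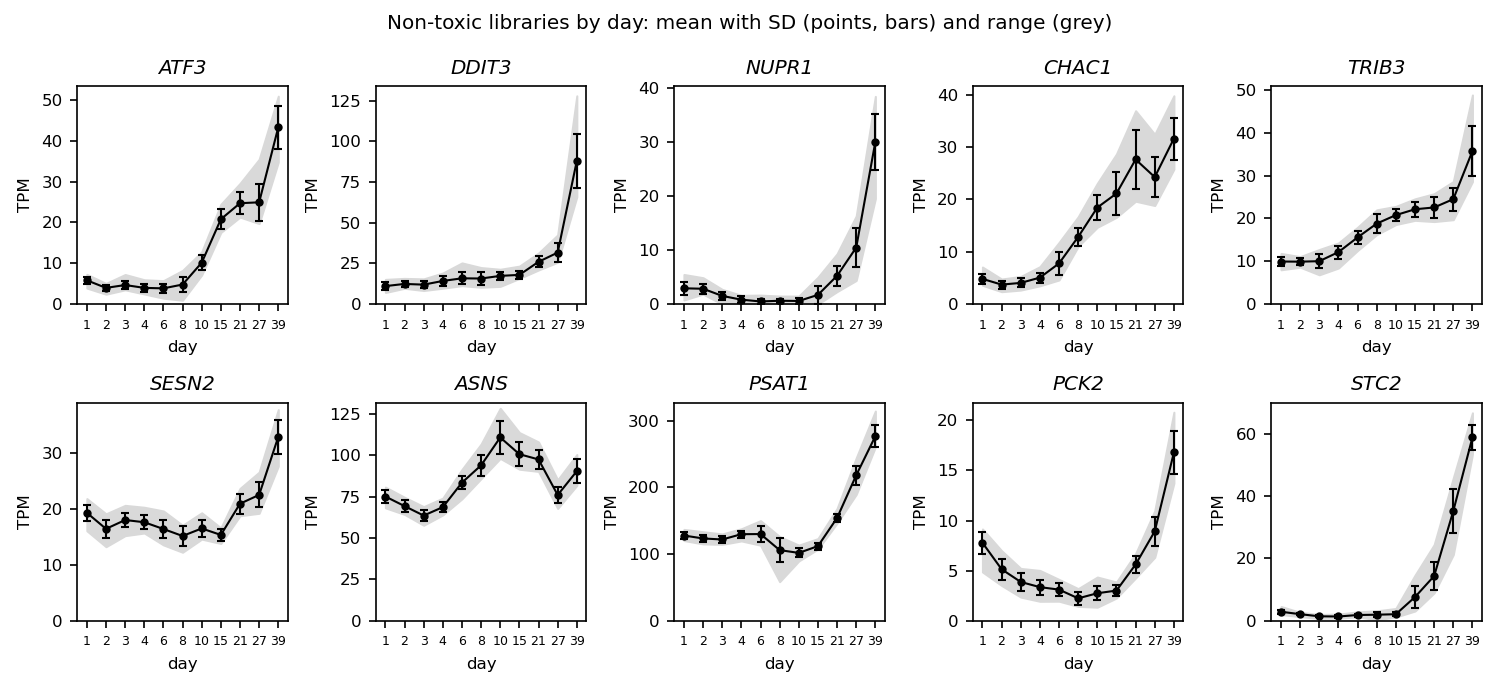
Mean TPM with SD (points and bars) and range (grey) of each of the 10 genes in the non-toxic libraries of each sampling day; days are evenly spaced. DDIT3, NUPR1, PCK2 and STC2 were highest on day 39, at 88.0, 30.1, 16.8 and 59.0 TPM on average, whereas ASNS peaked at 110.8 TPM on day 10.

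Between day 4 and day 1, 2 of the 10 rose (DDIT3 by 0.34 ± 0.09 and TRIB3 by 0.26 ± 0.06) and 6 fell, NUPR1 most, by 1.13 ± 0.16, and PCK2 by 1.02 ± 0.08. Of all genes 26.1% rose and 29.7% fell in that step. Between day 10 and day 4, 6 rose, where 32.8% of all genes did, led by CHAC1 and ATF3 (1.17 ± 0.10). PSAT1 fell by 0.35 ± 0.04 and PCK2 by 0.22 ± 0.08, where 35.8% of all genes fell, and the PCK2 call was lost after centring each library. Between day 21 and day 10, 8 rose, STC2 by 2.31 ± 0.11 and NUPR1 by 2.01 ± 0.18 the most, and only ASNS fell, by 0.18 ± 0.04. The same step had 49.6% of all genes higher and 12.5% lower, with a median shift of 0.16. Between day 39 and day 21, 8 rose again, where 28.8% of all genes did: NUPR1 by 2.35 ± 0.18, STC2 by 2.01 ± 0.12, DDIT3 by 1.71 ± 0.10 and PCK2 by 1.43 ± 0.10. ASNS was called lower by -0.11 ± 0.04, where 42.0% of all genes were, but the sign turned after centring, to 0.0090, and the 0.20 ± 0.10 of CHAC1 was not called. The median of the 10 was 0.81 in this last step and that of all genes -0.08.

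Other genes of the pathway followed the last step in part. Of 24 further ATF4 targets, 14 rose and 2 fell between day 39 and day 21, CEBPB by 1.199 ± 0.12, SHMT2 by 1.02 ± 0.04 and SLC7A11 by 0.99 ± 0.07 the most. The ATF4 message itself fell by 0.36 ± 0.02 in that step. All 6 hypoxia genes rose, among them CA9 by 4.11 ± 0.13, as did all 8 p53 targets, with CDKN1A at 2.50 ± 0.08, while 4 of 8 genes of the ATF6 and XBP1 arm rose and 1 fell. The make-up of the cultures moved too: the 5 astrocyte markers summed to 3245 to 4904 TPM on day 39 and 915 to 2031 TPM on day 21. The 6 mesenchymal and smooth muscle markers summed to 4309 to 8357 TPM on day 39 and 2048 to 3565 TPM on day 21, and the 6 neuron markers to 3851 to 4420 TPM on day 39 and 5332 to 5804 TPM on day 21. In RNA from a whole well, fewer cells of a type and less RNA per cell cannot be told apart, and the part of these markers in the rise of the 10 genes was not tested.

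The second question was which compounds moved the 10 genes. Over 28 toxic compounds with at least 5 libraries, 137 of 280 differences from the same-day non-toxic libraries were called, 113 higher and 24 lower. Many other genes were called too, and their share is given below with each compound or, for the 6 without a call, pooled. Without those shares the pooled count is not a result about these 10 genes. Under arsenic, cadmium, K252a and lead acetate all 10 genes were higher. The background differed widely between these 4. Under arsenic 34.8% of all genes were higher and 46.7% lower, under cadmium 24.6% and 59.4%, under K252a 18.7% and 16.7%, and under lead acetate 19.6% and 22.4%. The median of the 10 was 3.96 under arsenic, 2.30 under cadmium, 2.16 under K252a and 0.78 under lead acetate, beside medians of all genes of -0.11, -0.40, -0.0018 and -0.02. The lead acetate library of day 39 went the other way, with 0 of the 10 above and 5 below the non-toxic range. Without that library all 10 were still called higher.

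For 7 other compounds at least 7 of the 10 were higher. Under AraC 9 were higher and PSAT1 lower, beside 40.9% of all genes higher and 27.2% lower. Busulfan gave the same split, beside 29.5% and 35.1%. Okadaic acid raised 8 and lowered PSAT1, beside 35.1% and 39.8% of all genes. Vincristine raised 8 and lowered PSAT1, beside 33.1% and 37.9%. Without its day 4 library it raised 6 and lowered PSAT1, beside 33.7% of all genes called in either direction, and the calls of NUPR1 and PCK2 were lost. Hydroxyurea raised 8, beside 28.9% of all genes higher and 23.2% lower, and 5-fluorouracil raised 7, beside 39.6% and 19.1%. Among the calls under these 7, STC2 turned with time under 5-fluorouracil, at 2.23 ± 0.12 on days 1 to 6 and -2.28 ± 0.17 in the 2 libraries of days 27 and 39. CHAC1 under hydroxyurea, higher over all days, lay below the non-toxic libraries on days 8 to 39 alone. PD166866, an inhibitor of FGF receptors, had the smallest background of the compounds that raised most of the set: 8 of the 10 were higher, where 8.98% of all genes were higher and 15.1% lower.

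**Figure D2:**
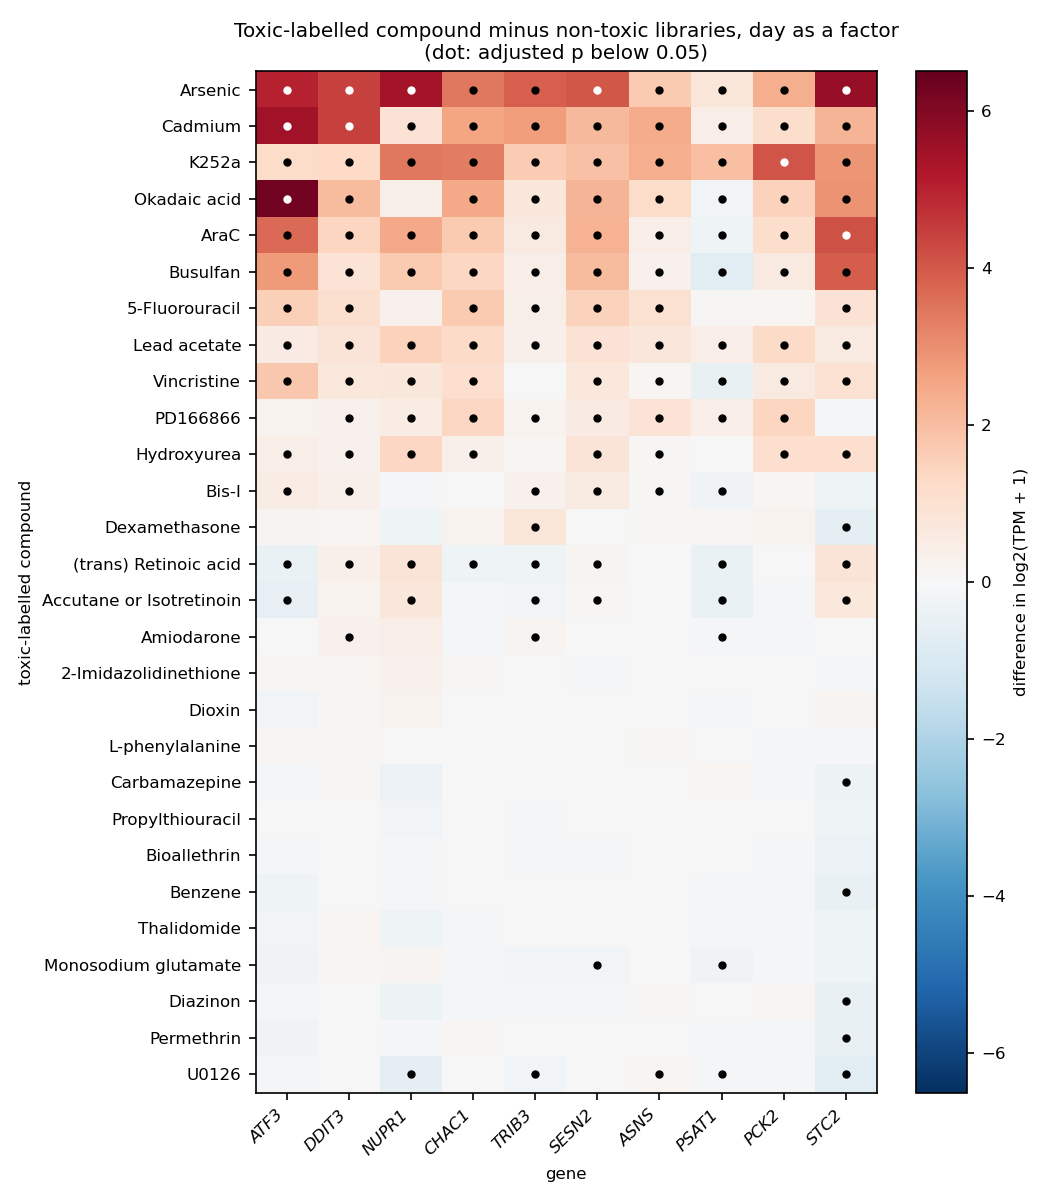
Difference in log2(TPM + 1) between each toxic-labelled compound and the non-toxic libraries of the same days (colour), for the 10 genes (columns) and 28 compounds (rows, ordered by the mean of the 10 genes); dots mark an adjusted p below 0.05. Arsenic, cadmium, K252a and lead acetate have all 10 genes marked higher, and PSAT1 is the column with the most compounds marked lower, 10 of 28.

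ATF3 reached the highest level of the 10 in any toxic library. It had 87.7, 170.1, 621, 1057 and 1145 TPM under okadaic acid, an inhibitor of protein phosphatases, on days 1, 2, 3, 4 and 6, against day means of 3.85 to 5.82 TPM in the non-toxic libraries. Each later library was higher than the one before. The difference was 6.26 ± 0.23 (adjusted p = 1.08e-40, limma). Cadmium libraries had 267, 254, 268, 200.7 and 194 TPM on the same days, and arsenic libraries 363, 149, 156, 154 and 109 TPM. All 15 of these libraries lay above the highest non-toxic library of their day, which ranged from 5.06 to 7.28 TPM. AraC gave 3.70 ± 0.16, with 140.3 TPM on day 2 the highest of its 5 libraries and 30.7 TPM on day 1 the lowest, and busulfan gave 2.76 ± 0.13.

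DDIT3 was higher under 14 of the 28 compounds and lower under none. It had 605, 249, 256, 275 and 229 TPM under arsenic on days 1, 2, 3, 4 and 6, and 261, 239, 264, 255 and 609 TPM under cadmium, against non-toxic libraries of 7.14 to 25.3 TPM over those days. The highest library came on day 1 under arsenic and on day 6 under cadmium. The differences were 4.45 ± 0.15 under arsenic (adjusted p = 2.69e-45, limma) and 4.47 ± 0.13 under cadmium (adjusted p = 1.49e-48). Okadaic acid gave 2.06 ± 0.13, AraC 1.40 ± 0.14, K252a 1.30 ± 0.10 and lead acetate 0.82 ± 0.10.

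NUPR1 differed widely between the metals. Arsenic libraries had 182, 100.7, 54.7, 67.9 and 159 TPM on days 1, 2, 3, 4 and 6, cadmium libraries 6.16, 6.40, 3.73, 0.56 and 4.04 TPM, and non-toxic libraries 0 to 5.48 TPM. Arsenic and non-toxic libraries did not overlap, whereas the cadmium libraries of days 3, 4 and 6 lay within that span and the one of day 4 also within the non-toxic range of its own day. The differences were 5.41 ± 0.23 under arsenic and 0.92 ± 0.22 under cadmium. Under okadaic acid the 0.40 ± 0.23 was not called, with a library listed at 0 on day 4. Under K252a NUPR1 lay above the non-toxic range on all 11 days, with 11.8 TPM at the lowest, a median of 24.5 TPM and 196 TPM at the highest, on day 39, a difference of 3.43 ± 0.16. Under vincristine the call of 0.74 ± 0.31 rested on the day 4 library at 31.0 TPM, and without it the difference was -0.14.

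CHAC1 had 203, 49.4, 53.1, 46.4 and 35.2 TPM under arsenic on days 1 to 6, so the day 1 library stood far above the others, against non-toxic libraries of 2.37 to 11.8 TPM. Under K252a it lay between 80.8 and 177 TPM with a median of 124.1 over 11 days, above the non-toxic range on each of them. The differences were 3.42 ± 0.17 under arsenic, 3.33 ± 0.11 under K252a and 2.55 ± 0.13 under cadmium. PD166866 gave 1.37 ± 0.10, with 15.2 to 57.2 TPM, and all 10 of its libraries exceeded the non-toxic range of their day.

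TRIB3 had 502, 173, 174, 136 and 88.6 TPM under arsenic and 87.0, 54.1, 59.7, 73.6 and 166 TPM under cadmium on days 1, 2, 3, 4 and 6, against 6.84 to 17.9 TPM in the non-toxic libraries. The arsenic libraries were lower on each later day, except between days 2 and 3, and the cadmium library of day 6 was the highest of its 5. The differences were 3.88 ± 0.14 under arsenic and 2.74 ± 0.09 under cadmium. TRIB3 was also the only one of the 10 raised by dexamethasone, a glucocorticoid: its 11 libraries ran from 16.97 to 56.2 TPM with a median of 34.5 TPM and exceeded the highest non-toxic library on all 11 days. That difference was 0.79 ± 0.06 (adjusted p = 2.86e-27, limma). STC2 was lower under dexamethasone by 0.56 ± 0.12, and these 2 calls stand beside 13.5% of all genes called in either direction.

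SESN2, which is also a p53 target, had 582, 279, 347, 309 and 146 TPM under arsenic and 115, 70.8, 64.3, 55.7 and 105 TPM under cadmium, against 13.2 to 21.8 TPM in the non-toxic libraries of days 1 to 6. No library of either metal reached down to that range. Okadaic acid gave 2.21 ± 0.07, AraC 2.28 ± 0.06, busulfan 2.07 ± 0.06 and 5-fluorouracil 1.51 ± 0.07. Under K252a its 11 libraries kept to 63.7 to 87.9 TPM, a difference of 1.93 ± 0.05.

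ASNS had 692, 264, 199, 167 and 122 TPM under arsenic, 634, 413, 308, 235 and 434 TPM under cadmium, and 576, 502, 429, 469 and 429 TPM under K252a on days 1, 2, 3, 4 and 6. The non-toxic libraries of those days had 57.7 to 91.4 TPM, below each of these 15 values. The arsenic libraries were lower on each later day, and those of K252a kept to 429 TPM or more over the 5 days. The differences were 1.71 ± 0.11 under arsenic, 2.40 ± 0.06 under cadmium and 2.36 ± 0.05 under K252a, the last with an adjusted p of 1.17e-92 from limma. PD166866 raised ASNS by 0.89 ± 0.04 and 5-fluorouracil by 0.99 ± 0.04.

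PSAT1 was the member that fell most often, higher under 5 compounds and lower under 10, of which monosodium glutamate rested on its day 1 library. K252a libraries had 435 to 823 TPM with a median of 515 TPM, and all 11 exceeded the non-toxic range, a difference of 1.96 ± 0.05. Arsenic had 558, 225, 176, 154 and 146 TPM on days 1, 2, 3, 4 and 6, against 113 to 150.1 TPM in the non-toxic libraries, so the day 6 library lay within that range. The 0.78 ± 0.09 under arsenic became 0.45 without its day 1 library, and the 0.43 ± 0.07 under cadmium became 0.23 without its own. Busulfan lowered PSAT1 by 0.73 ± 0.07, with 130.7, 93.3, 80.0, 53.4 and 48.1 TPM on the 5 days. The call of -0.26 ± 0.08 under AraC was lost without the day 4 or the day 6 library, and that of -0.16 ± 0.05 under okadaic acid was lost at a difference of 0.0011 without its day 4 library.

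PCK2 was highest under K252a, where its 11 libraries had 70.0 to 140.4 TPM with a median of 97.2 TPM. The non-toxic libraries of all days had 1.34 to 20.8 TPM, so the groups did not overlap. The difference was 4.11 ± 0.10 (adjusted p = 1.43e-82, limma), the largest among the 28 compounds for this gene. Arsenic gave 2.36 ± 0.11, okadaic acid 1.52 ± 0.16, PD166866 1.39 ± 0.09 and lead acetate 1.25 ± 0.11. PCK2 was called lower under none of the 28.

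STC2 had 106, 112, 166, 146 and 207 TPM under arsenic and 15.0, 9.56, 12.9, 9.60 and 12.98 TPM under cadmium on days 1, 2, 3, 4 and 6, against 0.72 to 4.53 TPM in the non-toxic libraries. Every arsenic library was above every cadmium library. Busulfan gave 16.3, 22.1, 47.1, 55.9 and 121 TPM on the same days, each library above the one before, and AraC 20.4, 32.7, 61.7, 56.0 and 104 TPM. The differences were 5.68 ± 0.12 under arsenic, 4.12 ± 0.16 under AraC, 3.91 ± 0.17 under busulfan and 2.20 ± 0.11 under cadmium. STC2 was also the only member lower under benzene, carbamazepine, diazinon and permethrin, by 0.50 ± 0.11, 0.32 ± 0.10, 0.48 ± 0.11 and 0.49 ± 0.11. There 6.33%, 4.90%, 2.30% and 1.02% of all genes were called. These differences pool all days. Between the late and early windows STC2 changed by -0.79 under benzene and -0.77 under diazinon, both called. The changes of -0.28 under carbamazepine and -0.39 under permethrin were not called. This change was below 0 in all 21 compounds tested for it, so a late shift downwards was not particular to these compounds.

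**Figure D3:**
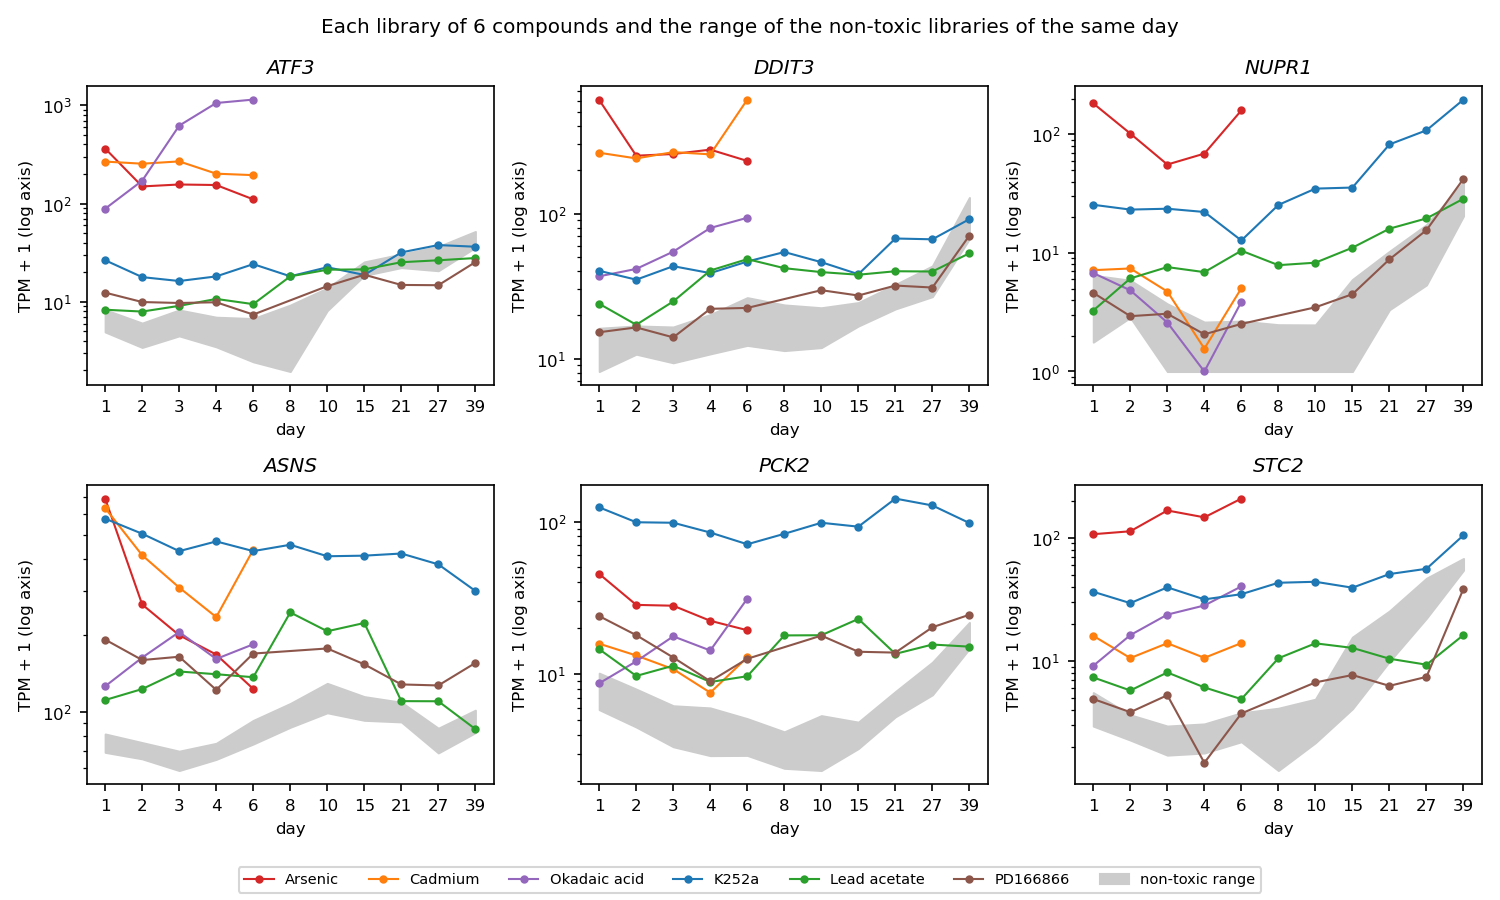
TPM + 1 on a log axis for 6 of the 10 genes in every library of 6 compounds (lines) and the range of the non-toxic libraries of the same day (grey); days are evenly spaced. NUPR1 reached 182 TPM under arsenic and 6.16 TPM under cadmium on day 1, ATF3 reached 1145 TPM under okadaic acid on day 6, and PCK2 stayed at 70.0 TPM or more under K252a.

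The remaining compounds moved fewer members or split the set. Under (trans) retinoic acid 4 were higher (NUPR1 by 0.82 ± 0.17, STC2 by 0.83 ± 0.13, DDIT3 and SESN2) and 4 lower (ATF3 by 0.46 ± 0.13, PSAT1 by 0.44 ± 0.04, CHAC1 and TRIB3), beside 21.2% of all genes higher and 26.4% lower. The ATF3 call under (trans) retinoic acid turned with time, at 0.48 ± 0.13 and called higher on days 1 to 6 and -1.26 ± 0.16 and called lower on days 8 to 39. Isotretinoin had 3 higher and 3 lower, beside 20.2% and 21.0%. Bis-I raised 5, SESN2 most by 0.59 ± 0.05, and lowered PSAT1, beside 10.2% and 32.3%. U0126, an inhibitor of MEK, raised ASNS by 0.11 ± 0.04 and lowered 4, STC2 most by 0.67 ± 0.14, beside 6.55% and 15.3%. STC2 under U0126 stood at 0.079 ± 0.11, not called, on days 1 to 6 and at -1.45 ± 0.21 on days 8 to 39, a late minus early difference of -1.525 ± 0.22 (adjusted p = 3.46e-08, limma). Amiodarone raised DDIT3 and TRIB3 and lowered PSAT1, beside 5.29% and 17.4%, and monosodium glutamate lowered SESN2 and PSAT1, where 8.38% of all genes were called. Its day 1 library had 7.92 TPM of SESN2 and 31.4 TPM of PSAT1, with 6 of the 10 below and 2 above the non-toxic range and a length slope of -0.34. Without that library neither gene was called under monosodium glutamate, at -0.084 ± 0.05 for SESN2 and -0.037 ± 0.04 for PSAT1, and 0 of the 10 and 0.0368% of all genes were.

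None of the 10 was called under 2-imidazolidinethione, bioallethrin, dioxin, L-phenylalanine, propylthiouracil and thalidomide, where 4.48% of all genes were called on pooling the 6 compounds. In that group 8 of 60 differences had an unadjusted limma p under 0.05. For the 16 non-toxic compounds, each set against the other non-toxic ones, 0 of 160 differences were called and 8 had an unadjusted p under 0.05, with 2.00% of all genes called. These differences spread from -0.42, for NUPR1 under DMSO, to 0.34, for NUPR1 under Ficoll 400.

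A stricter view asks on how many days a library exceeded every non-toxic library of its day. Under arsenic 9 of the 10 did so on all 5 days, PSAT1 being the exception, where 13.9% of all genes did. Cadmium had 8 such members (all but NUPR1 and PSAT1), beside 10.3% of all genes, and okadaic acid 6, beside 12.2%. K252a had 8 over all 11 days, the exceptions being ATF3 and DDIT3, where only 1.37% of all genes did. Lead acetate had 0 over its 11 days, beside 0.895%, although CHAC1, ASNS, SESN2 and PCK2 each exceeded the range on 10 of them. Maneb, with its 1 library on day 1 and hence no test, was above the range for ATF3 at 15.9 TPM, DDIT3 at 52.1 TPM, CHAC1 at 8.74 TPM, TRIB3 at 27.2 TPM and NUPR1 at 6.37 TPM, where 9.28% of all genes were. Its SESN2 at 13.1 TPM and PSAT1 at 110.1 TPM lay below the range, and its deviation from the non-toxic mean had a slope of -0.38 on log2 transcript length, the steepest of the 266 toxic libraries.

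The 24 further ATF4 targets were mostly higher under some of these compounds and split under others, where the shares of all genes are those given above. Under K252a 20 were higher and 1 lower, led by SLC7A11 at 3.46 ± 0.08, which imports cystine, SLC7A5 at 3.04 ± 0.07, a leucine transporter, and CEBPB at 2.72 ± 0.12. Arsenic had 20 higher and 3 lower, with CEBPB at 6.00 ± 0.15, and cadmium 15 and 6, with PPP1R15A at 3.88 ± 0.06, the eIF2 phosphatase subunit that ends the response. Okadaic acid had 17 and 7, PD166866 17 and 2, and lead acetate 15 and 3, the last led by SLC7A11 at 2.18 ± 0.10. 5-Fluorouracil had 13 higher and 2 lower, AraC 13 and 9, hydroxyurea 12 and 6, busulfan 12 and 11, and vincristine 10 and 10. The median of the 24 was 1.35 under K252a, 1.08 under arsenic, 0.30 under PD166866 and AraC, 0.12 under busulfan and hydroxyurea and -0.05 under vincristine, beside medians of all genes of -0.11 to 0.07. PPP1R15A was lower under K252a by 0.10 ± 0.04 and under lead acetate by 0.14 ± 0.03.

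Among the genes upstream, the ATF4 message was higher under K252a by 0.99 ± 0.02, under arsenic by 0.76 ± 0.05, under okadaic acid and PD166866 by 0.39 ± 0.03 and 0.39 ± 0.02, and under lead acetate by 0.35 ± 0.02, but lower under cadmium by 0.41 ± 0.03. EIF2AK3, the gene of PERK, was higher under okadaic acid by 2.43 ± 0.07 and under cadmium by 1.28 ± 0.06. These are transcript levels, and phosphorylation of eIF2 was not measured.

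The other stress lists gave other counts, to be read beside the shares of all genes given above for each compound. Of 8 genes of the ATF6 and XBP1 arm, 8 were higher under okadaic acid, 7 under lead acetate, 6 under arsenic and under cadmium and 5 under K252a. HERPUD1, which serves the degradation of misfolded proteins of the endoplasmic reticulum, was higher by 2.48 ± 0.05 under cadmium, 2.43 ± 0.07 under arsenic and 1.38 ± 0.05 under K252a. HSPA5, the chaperone BiP, named here after its values were seen, was higher by 1.86 ± 0.04 under cadmium, 0.96 ± 0.02 under arsenic and 0.07 ± 0.03 under K252a. PD166866 raised 1 of the 8 and lowered 4. Of 8 p53 targets all were higher under arsenic, lead acetate, AraC, busulfan, 5-fluorouracil and hydroxyurea. Cadmium raised 2 and lowered 6, near its shares of all genes, 24.6% higher and 59.4% lower. The median of the 8 under cadmium was -0.48, beside -0.40 for all genes. PD166866 raised none and lowered 4, where 8.98% of all genes were higher and 15.1% lower. CDKN1A stood at 5.18 ± 0.11 under arsenic and 0.36 ± 0.08 under K252a.

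Cell type markers moved with some of these compounds. In libraries of days 1 to 6 the 6 progenitor markers summed to 401 to 692 TPM under arsenic, 552 to 1148 under cadmium, 525 to 1292 under AraC and 582 to 1732 under busulfan, against 1704 to 2500 TPM in the non-toxic libraries. The 6 mesenchymal and smooth muscle markers summed to 2351 to 19560 TPM under arsenic, 3163 to 9017 under AraC and 3744 to 12050 under busulfan, against 508 to 2616 TPM. The 6 neuron markers summed to 842 to 1507 TPM under arsenic and 1302 to 2117 under okadaic acid, against 2350 to 6101 TPM. Cadmium, at 2901 to 4966 TPM, and busulfan, at 2518 to 4036 TPM, stayed within that neuron range, and AraC ran from 2240 to 4092 TPM. That range pools days, and the non-toxic neuron sums rose to 4599 to 5147 TPM on day 4 and 5323 to 6101 TPM on day 6. On day 6 the cadmium, busulfan and AraC libraries therefore lay below all non-toxic libraries of the day. On day 4 those of busulfan and AraC did. Under okadaic acid the progenitor markers summed to 729 to 2388 TPM. Under K252a the progenitor markers summed to 1981 to 2252 TPM and under PD166866 to 1406 to 2299 TPM in the same window. On days 1 and 3 the libraries of both lay below the lowest non-toxic libraries, at 2351 and 2313 TPM. The neuron markers summed to 2401 to 4519 TPM under K252a and 2389 to 6669 TPM under PD166866. On days 4 and 6 the K252a libraries lay below all non-toxic libraries of the day. The 5 astrocyte markers, of which 3 averaged at least 1 TPM under K252a, summed to 239 to 267 TPM there. That was above all non-toxic libraries of those days, at 69.5 to 164 TPM. All libraries of AraC (228.6 to 926.9 TPM), busulfan (231.6 to 664.5), 5-fluorouracil (185.3 to 241.5) and hydroxyurea (172.4 to 206.3) also lay above them in that window. The mesenchymal and smooth muscle markers summed to 1539 to 3436 TPM under K252a, with a median of 2482 TPM, against a median of 1010 TPM in the non-toxic libraries. Libraries of arsenic (days 4 and 6), okadaic acid (days 4 and 6) and busulfan (day 3) also had a length slope below -0.15, and without them every call of the 10 under these 3 compounds held except that of PSAT1 under okadaic acid. The part of the marker shifts in the differences of the 10 genes was not tested.

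For 21 compounds with at least 3 libraries in both windows, the difference from the non-toxic libraries on days 8 to 39 was set against that on days 1 to 6. Of 210 such changes 38 were called, 9 higher and 29 lower late, where 14.3% were called over all genes and compounds. STC2 had 11 of the 29, all lower late, and ATF3 6. For STC2 the change was below 0 in all 21 compounds, from -1.525 to -0.016. Its direction was thus not particular to the compounds with a call. Of the 9 higher late, PSAT1 under monosodium glutamate (0.37) rested on the day 1 library and stood at -0.03 without it. K252a had 5 lower late, where 21.8% of all genes were called: ATF3, which was 0.53 ± 0.15 above the non-toxic libraries late and 1.92 ± 0.13 early, CHAC1 with 2.69 ± 0.11 and 4.08 ± 0.13, STC2 with 2.22 ± 0.22 and 3.61 ± 0.11, ASNS with 2.05 ± 0.05 and 2.72 ± 0.04, and DDIT3 with 1.08 ± 0.12 and 1.56 ± 0.13. All 5 were still called higher late. For PCK2 under K252a the late minus early change was -0.04 ± 0.17 and for PSAT1 0.05 ± 0.08. The non-toxic level of STC2 climbed over the same days, and the K252a libraries had 104 TPM on day 39 and 35.5 TPM on day 1.

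PD166866 had 5 lower late and TRIB3 higher by 0.32 ± 0.10, where 37.6% of all genes were called. ATF3 was below the non-toxic libraries late by 0.44 ± 0.12 and above them early by 0.87 ± 0.12, and STC2 was below late by 0.61 ± 0.22 and above early by 0.34 ± 0.12. (trans) Retinoic acid had 3 higher late, NUPR1 most at 1.05 ± 0.30, and 3 lower, ATF3 most at -1.74 ± 0.19, where 35.6% of all genes were called. Isotretinoin had SESN2 higher late and ATF3 and STC2 lower, beside 16.8% of all genes higher and 11.2% lower late. Hydroxyurea had 4 called, CHAC1 at -0.89 ± 0.16 and NUPR1 at 0.81 ± 0.29 the largest, beside 21.5%. Bis-I had NUPR1, PSAT1 and STC2 lower late, beside 21.2%. Dexamethasone had ATF3 and STC2 lower late and PSAT1 higher, beside 5.55%. Lead acetate had STC2 lower late by 1.11 ± 0.27 and SESN2 higher by 0.39 ± 0.10, beside 17.3%.

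**Figure D4:**
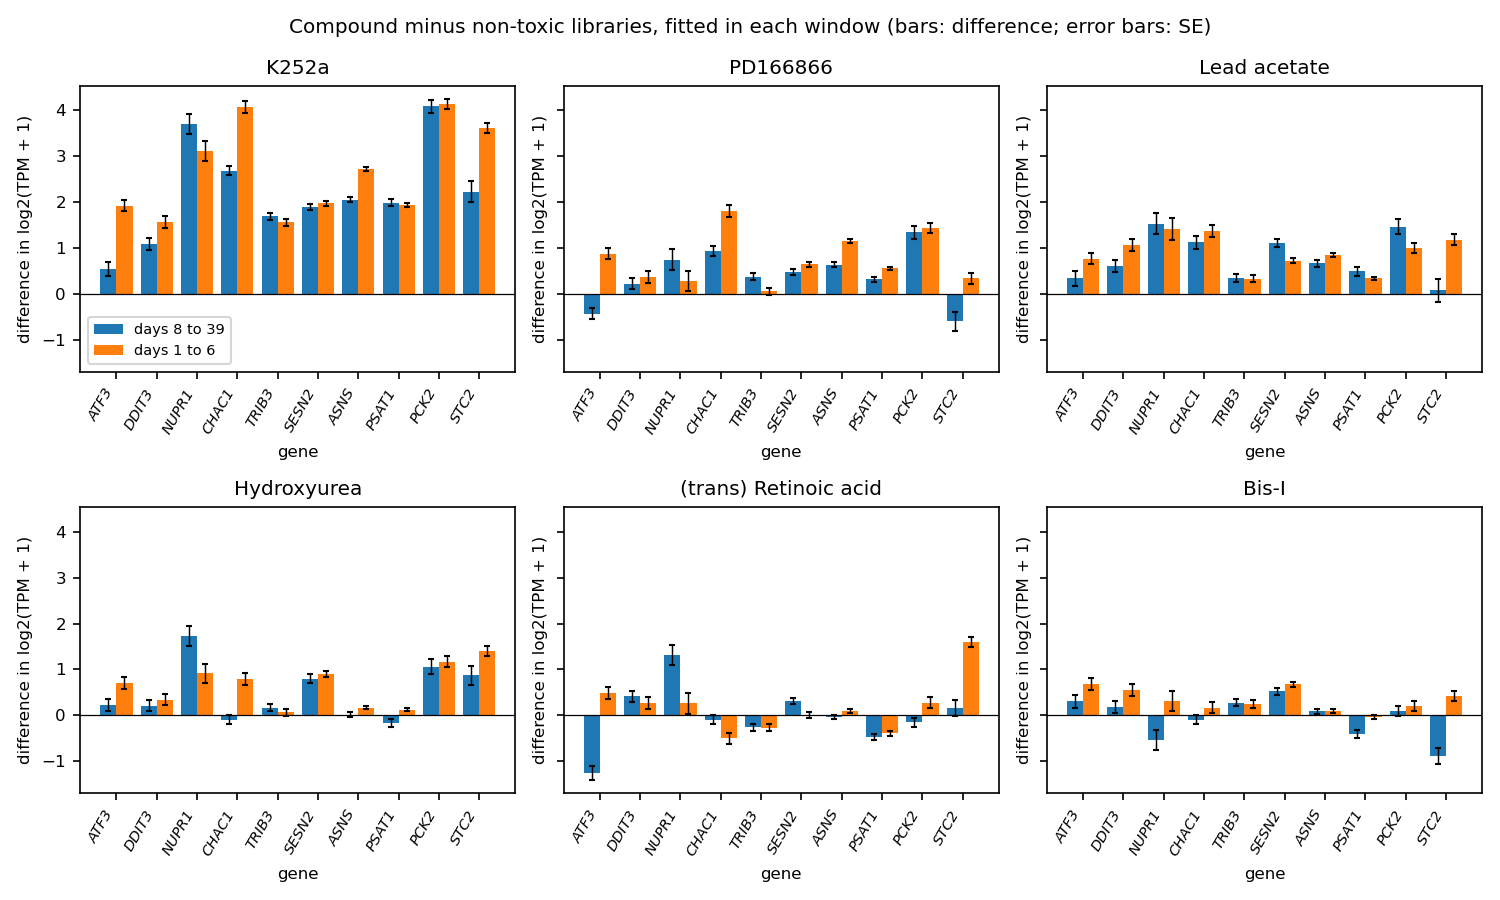
Difference in log2(TPM + 1) from the non-toxic libraries on days 8 to 39 (blue, left) and on days 1 to 6 (orange, right) for the 10 genes under 6 compounds; bars start at 0 and error bars are SE. PCK2 under K252a stood at 4.09 late and 4.13 early, whereas ATF3 under (trans) retinoic acid changed sign between the windows.

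A set of 4 pairs of compounds was compared directly on shared days, and the doses differed within each pair. Of the 40 differences 26 were called. Bis-I at 4 µM against K252a at 30 nM had all 10 lower over 11 days, where 25.5% of all genes were called. PCK2 had 3.46 to 15.5 TPM under Bis-I and 70.0 to 140.4 TPM under K252a, a difference of -3.97 ± 0.15 (adjusted p = 3.76e-09, limma). ATF3 differed least, at -0.68 ± 0.20 (adjusted p = 0.0257).

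U0126 at 10 µM against PD166866 at 2.5 µM, agents that act on the same pathway at MEK and at the FGF receptor, had 5 lower over 9 days, where 1.05% of all genes were called. PCK2 differed by -1.44 ± 0.13, CHAC1 by -1.40 ± 0.19, ASNS by -0.83 ± 0.11, PSAT1 by -0.64 ± 0.05 and SESN2 by -0.62 ± 0.07. ASNS had 65.4 to 116 TPM under U0126 and 121 to 191.6 TPM under PD166866, so these libraries did not overlap. ATF3, DDIT3, NUPR1, TRIB3 and STC2 were not called, with differences of -0.29 to -1.19.

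Cadmium at 50 µM against arsenic at 5 µM had 5 called over 5 days, where 47.5% of all genes were. NUPR1 was lower by 4.49 ± 0.29, STC2 by 3.49 ± 0.18, SESN2 by 1.92 ± 0.28 and PCK2 by 1.23 ± 0.19. ASNS was higher by 0.69 ± 0.24 (adjusted p = 0.0461, limma), a call lost without the libraries of day 2, 3, 4 or 6 and at 0.41 without those of day 6. DDIT3 differed by 0.01 ± 0.31 and ATF3 by 0.46 ± 0.19, neither called. Hydroxyurea at 250 µM against 5-fluorouracil at 10 µM had 5 lower and PCK2 higher, by 0.68 ± 0.17, over 7 days, where 27.3% of all genes were called, and CHAC1 was the lowest, at -1.22 ± 0.13.

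**Figure D5:**
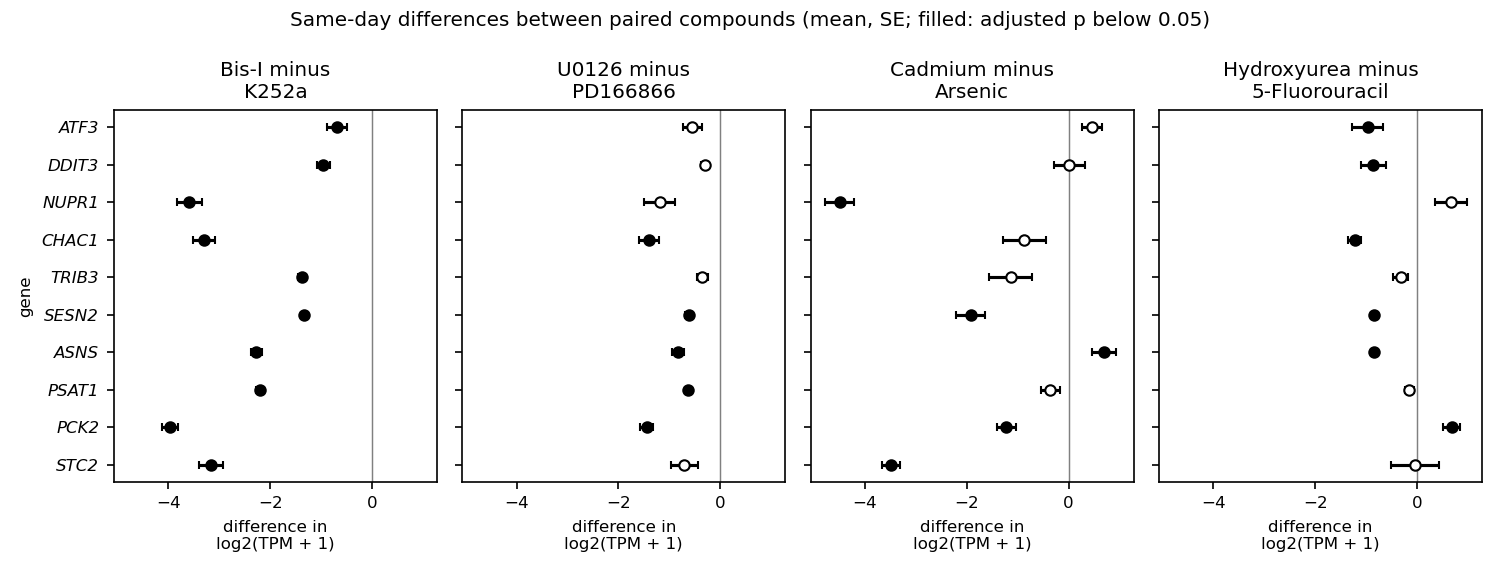
Same-day differences in log2(TPM + 1) between the compounds of each pair, with SE; filled points have an adjusted p below 0.05. All 10 genes lie left of 0 for Bis-I minus K252a, and NUPR1 lies at -4.49 for cadmium minus arsenic.

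With compounds as the units, the toxic class as a whole was not separated from the non-toxic class in any of the 10. On days 1 to 6, with 28 toxic and 16 non-toxic compounds, 0 of the 10 were called by limma, where 0.582% of all genes were, and on days 8 to 39, with 21 and 12 compounds, 0 of 10, where 17.6% of all genes were. Over both windows 8 of the 20 differences had an unadjusted p under 0.05, and all 8 were from days 1 to 6, such as ATF3 at 1.17 ± 0.44 and STC2 at 1.12 ± 0.39 (adjusted p = 0.125 and 0.108). Without cadmium and arsenic DDIT3 was called higher in the early window, by 0.49 ± 0.13 (adjusted p = 0.0283, limma).

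Across the 28 compounds the early differences of the members ran together to unequal degrees. As a description over compounds that share the non-toxic libraries, Pearson's r was highest for SESN2 with STC2 at 0.94 and for DDIT3 with TRIB3 at 0.94, and lowest for PSAT1 with ATF3 at 0.21. PSAT1 had the lowest median r with the other members, 0.49, and its closest partner was PCK2 at 0.78. Among 11843 genes outside the set with a mean of at least 5 TPM, those whose deviations over the 266 toxic libraries were most like the mean of the 10 were CEBPB (r = 0.94), SLC7A5 (0.93), MTHFD2 (0.92), SLC3A2 (0.90) and SLC7A11 (0.88). All 5 are on the list of further ATF4 targets, which was chosen with earlier results of these data known.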

How the data were processed

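Gene-level TPM of 414 libraries were analysed as the authors deposited them. Per the submitters' processing notes, processing used RSEM 1.2.1, Bowtie 0.12.8, CASAVA 1.8.2 and the hg19 build, whose order and roles those notes do not give. Library TPM summed to 999999.07 to 1000001.05. Read counts were not used here, so the depth of each library and the precision it gives are unknown, and a gene listed at 0 may still be expressed. No 2 libraries were identical, and the closest, permethrin and L-phenylalanine on day 3, correlated at 0.9958.

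Groups, days and doses came from the labels, and no library was left without a group. Genes had to reach 1 TPM in 5 or more libraries, which left 16318 to be tested on log2(TPM + 1) with limma 3.58.1 (R 4.3.3) and an intensity trend. P-values were Benjamini-Hochberg adjusted over all of them, with a threshold of 0.05. Steps in time were contrasts between days in a single model of the 148 non-toxic libraries. The model of a compound held its libraries and the same-day non-toxic ones, a term for day and a random effect of compound (a block correlation of 0.0212). The change between windows was the interaction in that model, pairs were fitted on shared days, and classes were compared on 1 mean deviation for each compound. Maneb, with 1 library, and compounds under the library minimum of a window had no test.

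The members and gene lists were chosen with earlier results of these data known. All 10 members are named; of another list, at most the 3 called genes with the largest difference each way. ATF4 and HSPA5 are named outside this rule, after their values were seen. The most similar genes were ranked by Pearson's r among genes averaging 5 TPM or more. Length trends used GENCODE 29 transcript lengths of 9613 of 10328 genes (93.1%). Alternatives were a pseudocount of 0.1, no filter, centring each library, leaving out libraries and days, and another block. The fits were tested on simulated data. Tables and figures were made in Python 3.11.15 with numpy 2.4.6, pandas 2.3.3, matplotlib 3.10.9 and data.table version 1.17.8 in R.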

Additional observations from a re-analysis of the deposited data

Results flagged for a closer look

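Within a compound, or within the non-toxic libraries of a day, 14 of 110 groups of 4 to 10 libraries had an end library far from its neighbours. Chance alone flags about 1 in 20 of independent groups. These groups share libraries, and ibuprofen on day 8 and U0126 on day 39 were flagged for several genes. The 14 of 110 therefore cannot be judged against that rate. For compounds the values are deviations from the same-day non-toxic mean of log2(TPM + 1). DDIT3 was far above its other days under arsenic on day 1 (5.68) and under AraC on day 2 (2.26). Day 1 libraries were the low ones for ATF3 under busulfan (1.86) and for CHAC1 and SESN2 under okadaic acid (1.35 and 1.42), and PSAT1 under okadaic acid was low on day 4 (-0.81). U0126 was low on day 39 for ATF3 (-1.61), DDIT3 (-1.10) and SESN2 (-0.49), and on day 2 for TRIB3 (-0.92). Among the non-toxic libraries of day 8, ibuprofen was the lowest for ATF3 at 0.95 TPM, PSAT1 at 58.5 TPM and STC2 at 0.29 TPM. Ficoll 400 was the highest for PSAT1 on day 15, at 123.1 TPM.

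The late minus early test found 38 differences in 14 compounds. Under (trans) retinoic acid they were ATF3 -1.74, STC2 -1.44, PCK2 -0.43, SESN2 0.30, CHAC1 0.41 and NUPR1 1.05, and under isotretinoin STC2 -1.36, ATF3 -1.10 and SESN2 0.31. Under K252a they were ATF3 -1.39, CHAC1 -1.39, STC2 -1.39, ASNS -0.67 and DDIT3 -0.48. PD166866 had ATF3 -1.31, STC2 -0.95, CHAC1 -0.88, ASNS -0.51, PSAT1 -0.24 and TRIB3 0.32. Hydroxyurea had CHAC1 -0.89, ATF3 -0.48, PSAT1 -0.28 and NUPR1 0.81. Bis-I had STC2 -1.30, NUPR1 -0.85 and PSAT1 -0.37, and dexamethasone STC2 -0.86, ATF3 -0.62 and PSAT1 0.24. Lead acetate had STC2 -1.11 and SESN2 0.39. A single member was found under U0126 (STC2 -1.525), benzene (STC2 -0.79), diazinon (STC2 -0.77), amiodarone (STC2 -0.57), carbamazepine (CHAC1 -0.58) and monosodium glutamate (PSAT1 0.37, but -0.03 without its day 1 library, which stood apart).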

How the results depend on the processing

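Single calls were followed only where at least 3 members were called, or, among compounds, under monosodium glutamate. That took in 131 of the 137 calls under compounds and 30 of the 38 late minus early calls. The calls under benzene, carbamazepine, diazinon, permethrin and dexamethasone against the non-toxic libraries were not followed. Over the 221 called values taken in and 1773 comparisons with an alternative, 1690 kept direction and call, 73 lost the call and 10 changed sign. Calls under compounds numbered 137 and came to 133 with a pseudocount of 0.1, 135 after centring, 138 without libraries of a length slope below -0.15, and 149 without ibuprofen on day 8. Without the replicate block of compound they also came to 149. With compound as a replicate block the time steps kept 34 calls, as without it, and no other call of theirs changed. Late minus early calls (38) ran from 31 (pseudocount 0.1) to 51 (without ibuprofen on day 8), and pair calls (26) from 23 to 28. By window, isotretinoin had 3 calls on days 1 to 6, U0126 2 on days 1 to 6 and 1 on days 8 to 39, hydroxyurea 4 and amiodarone 0 on days 8 to 39. Monosodium glutamate, with 2 calls, had 0 after centring, on days 8 to 39, without libraries of a steep length slope and without its day 1 library, and 4 without ibuprofen on day 8 or without the replicate block. That day 1 library and the lead acetate library of day 39, whose 10 calls held without it, were left out as alternatives chosen after seeing the data. Dexamethasone kept 1 late minus early call with a pseudocount of 0.1. Without cadmium and arsenic the class comparison had 1 call, on days 1 to 6, where it otherwise had 0.

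Signs turned for ASNS between days 39 and 21 after centring (0.0090). On days 1 to 6 alone they turned for ATF3 under (trans) retinoic acid (0.48) and isotretinoin (0.080), SESN2 under isotretinoin (-0.055) and STC2 under U0126 (0.079). On days 8 to 39 alone they turned for CHAC1 under hydroxyurea (-0.10), and for STC2 under 5-fluorouracil (-2.28, an alternative added after seeing the data, with 2 libraries). PSAT1 under okadaic acid came to 0.00036 without the libraries of a steep length slope. Leaving out 1 library, it ran from -0.21 to 0.0011, and NUPR1 under vincristine from -0.14 (without day 4) to 1.40. Without day 4, PCK2 under vincristine lost its call at 0.31 and SESN2 stood at 1.05, and ASNS lost its call at 0.03 without day 3. TRIB3 under AraC stood at 0.36 without day 2. The cause of these changes was not tested. Without depth, counting error cannot be given for any value.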
